A study of Mus with 6 samples.

Results

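Axon guidance ligands and receptors were compared in the hippocampus of mice with and without forced swim stress (FSS). Members were taken by gene symbol from the annotation of the array. They were the semaphorins except Sema5a, the plexins, neuropilins, ephrins, Eph receptors, Slits and Robos. Further members were the netrins Ntn1, Ntn3 and Ntn4, Ntng1, the receptors Unc5a to Unc5d and Dcc. Where the array has several rows for a gene, the brightest on average was taken. This gave 67 genes, 34 of ligands and 33 of receptors, out of 19938 genes that have a row with exactly 1 symbol. Unc5cl and Unc50, whose symbols resemble those of the Unc5 receptors, were not counted as members. Ephb2 is not among the members either, and the EphB receptors below are Ephb1, Ephb3, Ephb4 and Ephb6.

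Both groups were male C57BL/6JJmsSlc mice, given as 10 to 11 weeks old in the labels, and the labels name no transgene or drug for either. The 3 FSS mice swam for 11 min a day on 5 days in water at 25 °C, and the 3 control mice were not swum. RNA of each hippocampus was read on 1 GeneChip Mouse Gene ST array, so that the SDs below are between mice. By the paper's schedule, a tail suspension test came between the swimming and the collection of tissue, and nonstressed mice were given that test too. Values are log2 levels after robust multi-array averaging (RMA), and a difference of 1 is a doubling.

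Guidance proteins steer growing axons by attraction or repulsion, and many of them are still made in the adult brain, where they act on spines, synapses, myelin and vessels. Class 3 semaphorins are secreted and bind neuropilins, which pass the signal on through plexins, whereas most other semaphorins bind plexins directly. Ephrins are held in the membrane and can signal in both directions when they meet an Eph receptor on the next cell. Slits repel axons through Robo receptors, and netrin-1 attracts through Dcc or repels through Unc5 receptors. In the hippocampus, Sema3f with Nrp2 is known for its action on mossy fibres and on the spines of granule and pyramidal cells, and EphB receptors and ephrin-B proteins for their part in the clustering of glutamate receptors.

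The tissue and the arrays were checked first. All 11 listed markers of dentate granule cells, among them Prox1, and all 11 of pyramidal cells, among them Wfs1, lay over 6.21, the level that 95% of olfactory and vomeronasal receptor rows do not exceed (called the receptor level here). Of the 67 members, 66 lay over it, and Epha1 did not. The means of 10 lists of cell type and regional markers differed between mice. Of these lists, 5 had their lowest mean in control mouse 2 and 6 their highest in FSS mouse 1. In whole tissue, fewer cells of a type and less RNA per cell cannot be told apart.

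By the row taken, none of the 67 guidance genes differed between FSS and control mice at an unadjusted p under 0.05 in limma. Limma is a linear model per gene whose variance estimate borrows from the whole table. A further row of Epha10, not the one taken, did pass and is given below. The count was 0 higher and 0 lower, and with the test that the paper's methods name it was 1 higher (Plxnb2) and 1 lower (Ntn4), beside 2.96% and 2.04% of all rows in that test. Over all 21789 rows tested in limma, 2.49% were higher and 2.66% were lower at that threshold. The thresholds of the paper were stricter and asked for a change over 0.5 in size on the log2 scale as well. They held no member, and 0.0688% of all rows passed. No row of the table passed a Benjamini-Hochberg adjusted p of 0.05, and the smallest adjusted p among the members was 0.943 in limma.

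The differences were also small. The largest in size was that of Unc5d, with a log2 fold change of -0.20, or 1.15-fold lower. For 55 members the log2 fold change was under 0.1 in size, and the share of all rows was not counted. The median was 0.017 over the members and 0.0039 over all genes. Above 0 lay 39 members (58.2%, beside 52.5% of all genes), and 28 lay below. For 66 members the 95% interval from limma lay within -0.5 to 0.5, which is a share of 98.5%, beside 96.5% of all rows. The interval of Unc5d alone reached further, to -0.54. For 60 members the interval lay within -0.3 to 0.3, so that a change of more than 1.23-fold lay outside it. The interval lay within these narrower bounds for 78.2% of all rows.

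**Figure D1:**
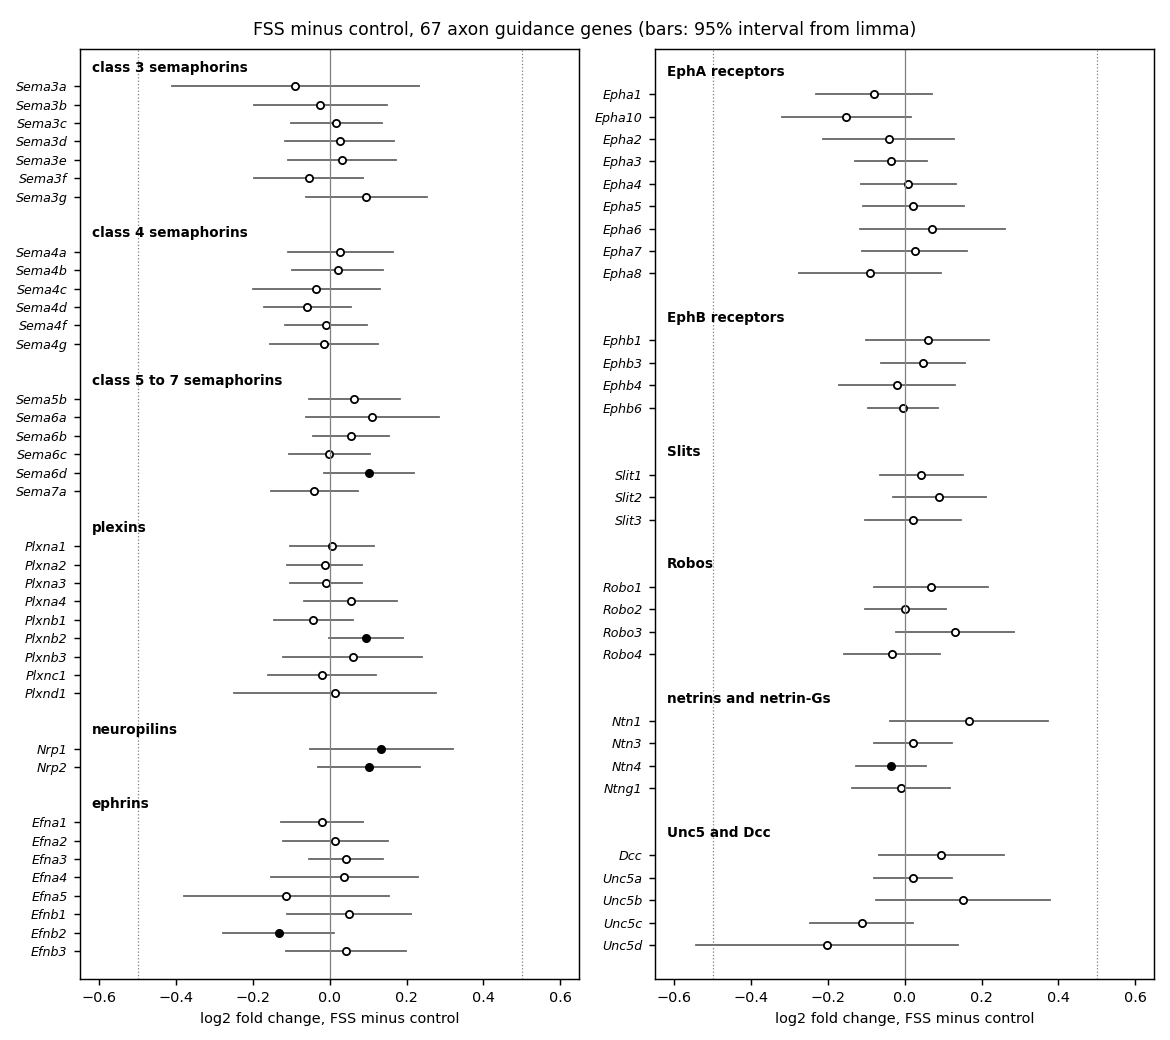
Difference in log2 level between FSS and control mice (x axis) for each of the 67 guidance genes (y axis, grouped by family), with the 95% interval from limma as a bar and dotted lines at -0.5 and 0.5. Filled circles are the 6 genes whose FSS and control mice do not overlap, and each 95% interval holds 0, the widest being that of Unc5d.

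In 6 genes the 2 groups did not overlap. All FSS mice lay above all control mice in Plxnb2, Nrp1, Nrp2 and Sema6d, which is 4 of 67 members, beside 6.02% of all rows. All FSS mice lay below all control mice in Efnb2 and Ntn4, which is 2 of 67, beside 4.25% of all rows. Both shares were close to or under the background. For each of these genes the exact two-sided permutation test gave p = 0.1, the smallest that 3 mice against 3 allow.

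Both neuropilins were among them. Nrp1, the coreceptor for Sema3a and for a form of vascular endothelial growth factor, had levels of 10.03, 9.78 and 10.05 in control mice and 10.08, 10.07 and 10.10 in FSS mice. Control mouse 2 was low and the other control mice lay just under the FSS mice. On average FSS mice were 0.13 higher on the log2 scale (standard error 0.078, limma adjusted p = 0.943), and 0.045 higher without control mouse 2. The endothelial and pyramidal cell list means were lowest in the same mouse, at 7.90 and 9.38, and reached 8.14 and 9.45 in the others, and their part in the level of Nrp1 was not tested. Nrp2, the coreceptor for Sema3f, had levels of 9.56, 9.54 and 9.57 in control mice and 9.76, 9.59 and 9.62 in FSS mice. Here FSS mouse 1 stood apart on the high side. The mean difference was 0.10 (standard error 0.056, limma adjusted p = 0.943), which went down to 0.050 without FSS mouse 1. With each array centred on its median, the groups overlapped in both neuropilins, and so they did in Efnb2, an ephrin given below.

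The secreted ligands of the neuropilins did not follow them in 1 direction. Of the 7 class 3 semaphorins, 4 lay above 0 and 3 below, with a median log2 fold change of 0.017. Sema3g, a semaphorin of endothelial cells, had the highest value of the class, 0.096 (95% interval -0.063 to 0.25), and Sema3a had the lowest, -0.089 (95% interval -0.41 to 0.23). The value of Sema3f, the partner of Nrp2, was -0.055 (95% interval -0.20 to 0.087), with levels from 7.68 to 7.84 in control mice and from 7.64 to 7.74 in FSS mice. Sema3e, which binds Plxnd1 without a neuropilin, had a log2 fold change of 0.032, and Plxnd1 one of 0.014.

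Plxnb2, a receptor of class 4 semaphorins that is found on neural progenitors and glia, came closest to the threshold of all members. Its levels were 9.49, 9.49 and 9.47 in control mice and 9.60, 9.54 and 9.60 in FSS mice. Control mice had a mean of 9.49 ± 0.011 (SD, n = 3) and FSS mice one of 9.58 ± 0.031 (SD, n = 3). The log2 fold change of 0.095, or 1.07-fold, had a standard error of 0.040 and a 95% interval from -0.00071 to 0.19 (limma adjusted p = 0.943). It passed an unadjusted p of 0.05 in 6 of 17 alternative fits, among them the one without FSS mouse 2, and its log2 fold change ranged from 0.078 to 0.11. The adjusted p over these fits ranged from 0.657 to 1.00. Of the other plexins, Plxnb1, the receptor of Sema4d, had the lowest value, -0.042, and the 4 plexin-A genes, coreceptors of neuropilins, lay between -0.013 (Plxna2) and 0.054 (Plxna4). Their within-group SD had a median of 0.034, beside 0.069 over all members and 0.078 over all rows.

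Of the semaphorins that stay on the membrane, Sema6d was the one without overlap. It binds plexin-A1 and plexin-A4 and had levels of 9.96, 9.97 and 9.90 in control mice and 10.12, 10.01 and 10.02 in FSS mice. The difference between the closest mice of the 2 groups was small, and FSS mouse 1 was the highest. FSS mice were on average 0.10 higher (standard error 0.050, 95% interval -0.015 to 0.22, limma adjusted p = 0.943), and 0.067 higher without FSS mouse 1. The 6 class 4 semaphorins lay between -0.059 (Sema4d) and 0.028 (Sema4a). Sema7a, which is anchored to the membrane by a lipid, had a value of -0.040, and its receptor Plxnc1 one of -0.020. Every 95% interval of the 19 semaphorins lay within -0.5 to 0.5.

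**Figure D2:**
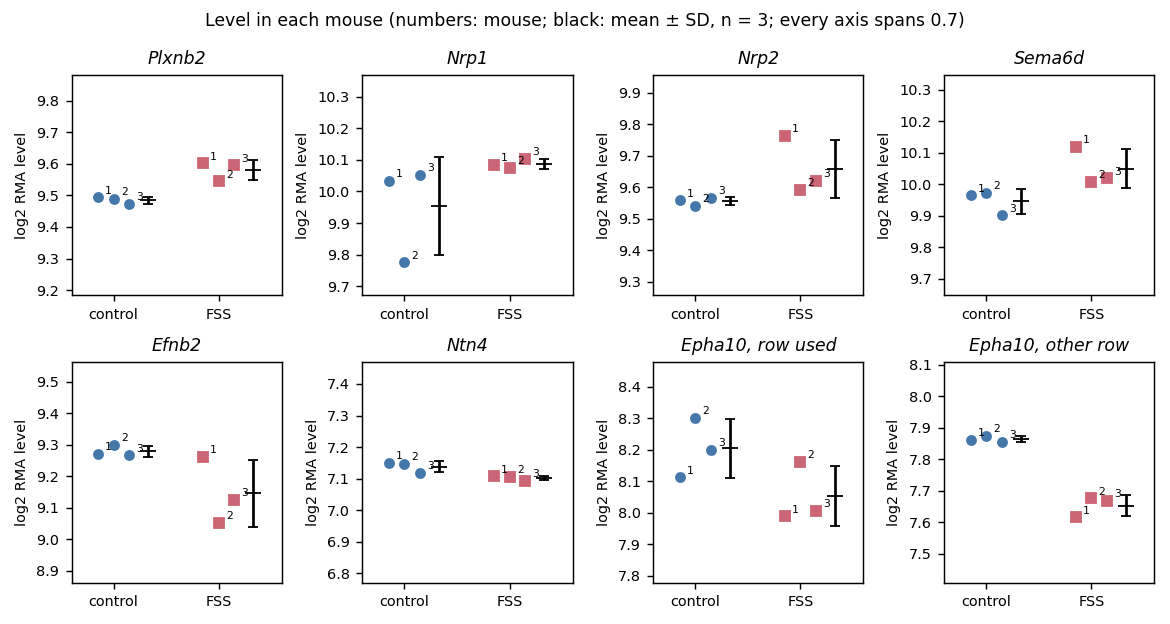
Log2 RMA level (y axis, 0.7 units in every panel) of the 6 genes whose groups do not overlap and of both rows of Epha10, in control mice (blue circles) and FSS mice (red squares), numbered by mouse, with the mean ± SD of 3 mice in black. The gap between the groups is smaller than 0.1 in each of the 6 genes, and Nrp1 has 1 low control mouse, at 9.78.

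Among ephrins, Efnb2, a ligand of EphB receptors and of Epha4 that also marks arterial endothelium, was lower in every FSS mouse. Its levels were 9.27, 9.30 and 9.27 in control mice and 9.26, 9.05 and 9.12 in FSS mice. FSS mouse 1 lay next to the control mice, and the other FSS mice were lower. The mean difference was -0.13 (1.10-fold lower, standard error 0.061, 95% interval -0.28 to 0.011, limma adjusted p = 0.943). Without FSS mouse 1 it was -0.19 and passed an unadjusted p of 0.05, and without FSS mouse 2 it was -0.086 and did not. The other ephrin-B genes lay on the other side of 0, Efnb1 at 0.050 and Efnb3 at 0.042. The 5 ephrin-A genes, which are tied to the membrane by a lipid anchor, lay between -0.11 (Efna5) and 0.043 (Efna3).

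The Eph receptors that bind these ligands lay on both sides of 0, 6 of 13 above and 7 below, with a median of -0.0041. Epha4, which binds ephrins of both classes and acts on dendritic spines of the hippocampus, had a log2 fold change of 0.0088, with a 95% interval from -0.11 to 0.13. Ephb1 had the highest value of the EphB receptors, 0.060, and Ephb4, a receptor of venous endothelium, the lowest, -0.020. Epha6 had the highest value of the EphA receptors, 0.071, with a low control mouse 2 (10.77, beside 11.01 to 11.07 in the other mice).

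Epha10, an Eph receptor whose kinase domain is thought to be inactive, had the lowest value of its family. Its levels were 8.11, 8.30 and 8.20 in control mice and 7.99, 8.16 and 8.01 in FSS mice. FSS mouse 2 overlapped with the control mice. The mean difference was -0.15 (standard error 0.070, 95% interval -0.32 to 0.015, limma adjusted p = 0.943). Epha10 passed an unadjusted p of 0.05 in 7 of 17 alternative fits, the most of any member. Its adjusted p over these 17 fits was 0.657 or more. The array holds a further row for Epha10, with a lower mean level, which the rule for choosing rows sets aside. In that row the levels were 7.86, 7.87 and 7.86 in control mice and 7.62, 7.68 and 7.67 in FSS mice, with no overlap. The difference there was -0.21 with a standard error of 0.040 (limma unadjusted p = 0.0014, adjusted p = 0.872). That adjusted p equalled the smallest of all rows tested. With the mean of both rows in place of the brighter one, Epha10 differed by -0.18 on the log2 scale and passed an unadjusted p of 0.05 (limma adjusted p = 0.938). This row was singled out after its value was seen. Of the other symbols with a further row, Ephb1, Ntng1, Sema4d and Unc5d had none with p under 0.05, the log2 fold changes of Sema4d were of opposite sign in its rows, and both rows of Sema6b hold the same values.

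The Slits and Robos differed little. Slit1, Slit2 and Slit3, the secreted ligands, had log2 fold changes of 0.043, 0.090 and 0.021. Robo1 and Robo2, their main receptors on axons, had 0.068 and 0.0018. Robo3, which in commissural axons switches off repulsion by Slits, had levels of 7.37, 7.25 and 7.32 in control mice and 7.35, 7.55 and 7.42 in FSS mice. FSS mouse 1 lay within the control range. Robo3 had a log2 fold change of 0.13 with a 95% interval from -0.024 to 0.29, which did not pass. It was 0.18 and passed an unadjusted p of 0.05 without FSS mouse 1, and 0.074 without FSS mouse 2. Robo4, the Robo of endothelial cells, had -0.033.

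The netrin system held the members with the largest differences in both directions. Ntn1, the ligand of Dcc and of the Unc5 receptors, had the highest log2 fold change of all members, 0.17 (1.12-fold, 95% interval -0.040 to 0.37, limma adjusted p = 0.943). Its levels were 7.29, 7.43 and 7.27 in control mice and 7.67, 7.44 and 7.38 in FSS mice. FSS mouse 1 was the highest, and FSS mouse 3 lay below control mouse 2. Without FSS mouse 1 the value fell to 0.080. Dcc had a log2 fold change of 0.095 (95% interval -0.067 to 0.26), with levels of 9.54, 9.34 and 9.50 in control mice and 9.64, 9.54 and 9.49 in FSS mice. Ntn4, a netrin of basement membranes, lay at 7.15, 7.15 and 7.12 in control mice and at 7.11, 7.11 and 7.09 in FSS mice. Its groups did not overlap, and its log2 fold change was only -0.036 (95% interval -0.13 to 0.055). Ntn3 and Ntng1 had 0.022 and -0.0096.

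The 4 Unc5 receptors went apart. Unc5b, which is also known from endothelial cells, had a log2 fold change of 0.15 (95% interval -0.075 to 0.38) and Unc5a one of 0.021. Unc5c had levels of 9.95, 9.87 and 9.80 in control mice and 9.81, 9.70 and 9.79 in FSS mice, and a log2 fold change of -0.11 (95% interval -0.25 to 0.021). Without control mouse 3 it was -0.15 and passed an unadjusted p of 0.05, and without control mouse 1 it was -0.075 and did not. Unc5d had levels of 8.77, 9.22 and 8.92 in control mice and 8.98, 8.56 and 8.76 in FSS mice. The groups overlapped widely, and the log2 fold change of -0.20 had a standard error of 0.14 (limma adjusted p = 0.947). It ranged from -0.31 without FSS mouse 1 to -0.10 without FSS mouse 2 and -0.077 without control mouse 2.

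The spread between mice of 1 group was larger than the difference between groups in several members. The widest within-group SDs were those of Unc5d (0.22), Sema3a (0.21), Efna5 (0.17) and Plxnd1 (0.17). Sema3a had levels of 6.81, 7.21 and 7.17 in control mice and 7.16, 6.78 and 6.98 in FSS mice. Efna5 had levels of 7.99, 8.19 and 8.20 in control mice and 8.24, 7.83 and 7.96 in FSS mice. In Unc5d, Sema3a and Efna5 alike, control mouse 1 was the lowest of the control mice and FSS mouse 2 the lowest of all. Members with less spread had this order too, namely Sema4b, Sema4g, Ntng1, Plxnb1 and Unc5a. Without FSS mouse 2 the log2 fold change of Sema3a turned to 0.0081, and that of Efna5 was -0.025. Without FSS mouse 1 that of Efna5 was -0.23 and passed an unadjusted p of 0.05.

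Marker lists of neighbouring regions shared this order only in part. The mean level of the 9 measured markers of neocortex was lowest in FSS mouse 2 and control mouse 1 (8.94 and 8.97) and higher in the other mice, up to 9.06. Over the groups it ranged from 8.97 to 9.06 in control mice and from 8.94 to 9.02 in FSS mice, with all 9 markers over the receptor level. Of the 9, 3 had the order of Unc5d, Sema3a and Efna5, with control mouse 1 the lowest control mouse and FSS mouse 2 the lowest of all. These were Lamp5, Rasgrf2 and Tbr1. The mean of the 10 listed thalamic markers, also all over that level, ranged from 7.85 to 7.95 in control mice and from 7.77 to 8.07 in FSS mice, and 1 of the 10, Rora, had that order. Of the 11 pyramidal cell markers 1 had it, Wfs1 of the CA1 field, and their mean lay between 9.38 and 9.45 and was lowest in control mouse 2. Lists of glia held the order too, with 2 of 11 measured astrocyte markers (Aldh1l1 and Aldoc) and 2 of 11 measured oligodendrocyte markers (Mbp and Pdgfra). No marker of the other lists had it. The order was looked for after the values were seen, and the share of all genes with it was not counted. The part of these regions and cell types in the levels of the guidance genes was not tested.

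Without FSS mouse 2, the count of guidance genes at an unadjusted p under 0.05 was 4 higher and 1 lower, beside 3.42% and 4.18% of all rows in the same fit. The higher ones were Plxnb2, Unc5b (log2 fold change 0.24), Sema6a (0.18) and Plxnb3 (0.14), and the lower one was Epha10 (-0.21). Without FSS mouse 1, Unc5b, Sema6a and Plxnb3 had values of 0.10, 0.057 and 0.018, and none passed. Sema6a and Plxnb3 are known from oligodendrocytes. Plxnb3 had levels of 8.53, 8.55 and 8.43 in control mice and 8.65, 8.41 and 8.64 in FSS mice. Sema6a had levels of 9.77, 9.72 and 9.62 in control mice and 9.92, 9.68 and 9.83 in FSS mice, and Unc5b 8.21, 8.02 and 7.98 in control mice and 8.33, 8.05 and 8.30 in FSS mice. In all 3 genes FSS mice 1 and 3 were the highest, and FSS mouse 2 lay within the control range or below it.

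The mean level of the 11 measured oligodendrocyte markers was likewise highest in FSS mice 1 and 3, at 10.21 and 10.20, and lowest in FSS mouse 2, at 9.96, where 8 of the 11 markers had their lowest level. It ranged from 10.07 to 10.16 in control mice. All 11 lay over the receptor level. The part of oligodendrocyte RNA in the levels of Sema6a, Plxnb3 and Unc5b was not tested. With all mice, the log2 fold changes of the 3 genes were 0.11, 0.060 and 0.15, and none passed.

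**Figure D3:**
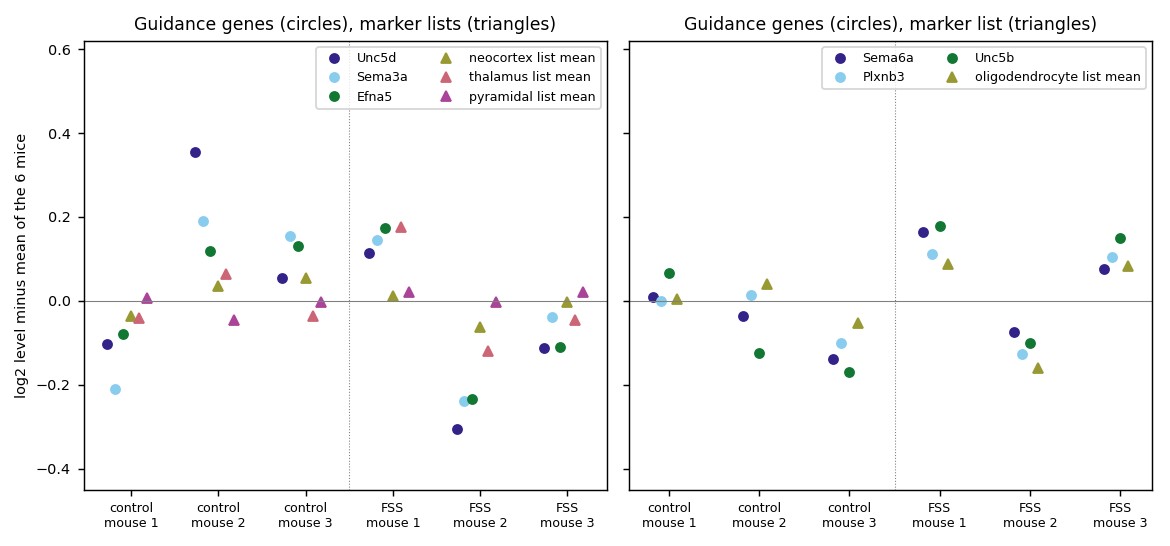
Log2 level of each mouse minus the mean of the 6 mice (y axis) for guidance genes (circles) and means of marker lists (triangles), by mouse (x axis). On the left, FSS mouse 2 is the lowest for Unc5d, Sema3a and Efna5 and for the neocortex and thalamus lists, but not for the pyramidal cell list. On the right, FSS mice 1 and 3 lie above the other mice for Sema6a, Plxnb3 and Unc5b, as for the oligodendrocyte list.

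The mice also differed over the whole set. FSS mouse 1 had the highest level of the 6 mice in 24 of the 67 members (35.8%, beside 21.7% of all genes), and control mouse 2 the lowest in 19 (28.4%, beside 18.1% of all genes). Nrp1, Epha6, Epha7, Dcc and Ephb1 were among the genes lowest in control mouse 2. The mean levels of the dentate granule cell and microglial marker lists were also lowest in that mouse, at 9.24 and 8.54, beside 9.30 to 9.36 and 8.65 to 8.76 in the others. Both list means were also higher in all FSS mice than in all control mice. They were 9.245 to 9.345 against 9.356 to 9.362 for granule cells, a narrow gap, and 8.54 to 8.67 against 8.70 to 8.76 for microglia. At an unadjusted p under 0.05 in limma, 3 granule cell markers were higher and 1, Btg2, was lower (log2 fold change -0.28). Of the microglial markers 3 were higher and 0 lower, and of all rows 2.49% were higher and 2.66% lower. Of the granule cell list 11 of 11 and of the microglial list 9 of 10 measured markers lay over the receptor level. The part of these cells in the genes lowest in control mouse 2 was not tested. The thalamic list mean was highest in FSS mouse 1, at 8.07 beside 7.77 to 7.95 in the others. Of its 10 markers, 4 were highest there. Among these, Zic1 was at 9.23 (7.80 to 8.26 in the others) and Prkcd at 9.03 (8.40 to 8.56). Of the 10 lists, 6 had their highest mean in FSS mouse 1, also those of granule cells, astrocytes, oligodendrocytes, microglia and choroid plexus. The part of these lists in the members highest in that mouse, such as Ntn1 and Sema6d, was not tested. Without control mouse 2 or without FSS mouse 3, no member passed an unadjusted p of 0.05. Without control mouse 1, Epha10 was lower and Sema3g higher (log2 fold change 0.16, beside 0.051 without control mouse 3), and without control mouse 3, Unc5c was lower. These are 1 or 2 members, where of all rows 2.90% were higher and 2.65% lower in the former fit and 4.23% lower in the latter.

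The genes that act with or behind these receptors were counted in the same fit. Of 25 measured genes of other guidance cues and adhesion partners, such as Draxin, Rgma, Neo1, L1cam and Cntn2, none passed an unadjusted p of 0.05, and their median log2 fold change was 0.030. Of 43 measured intracellular effectors, 2 were higher and 1 was lower, beside 2.49% and 2.66% of all rows, with a median of 0.021. The higher ones were Rras, a small GTPase that plexins inactivate, and Dock1, an activator of Rac. The lower one was Dpysl4, which encodes a collapsin response mediator protein of the family that carries the signal of class 3 semaphorins.

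Rras had levels of 9.83, 9.75 and 9.84 in control mice and 9.97, 9.98 and 9.97 in FSS mice. FSS mice were 0.17 higher on average (standard error 0.044, 95% interval 0.064 to 0.27, limma adjusted p = 0.943). Dpysl4 had levels of 8.96, 9.08 and 9.03 in control mice and 8.88, 8.85 and 8.84 in FSS mice. The mean difference of FSS mice was -0.17 (standard error 0.047, 95% interval -0.28 to -0.054, limma adjusted p = 0.943). Dock1 had levels of 8.30, 8.30 and 8.37 in control mice and 8.50, 8.43 and 8.48 in FSS mice. The log2 fold change of Dock1 was 0.14 (95% interval 0.037 to 0.25, limma adjusted p = 0.943), and it did not pass without control mouse 1 (0.13) or without FSS mouse 1 (0.13). In all 3 genes the groups did not overlap, but the 3 had been picked by their p. Of the effectors that did not pass, Dpysl3, Cfl1 and Arhgef12 had all FSS mice above all control mice. Fes and Rnd1 had all FSS mice below them. Of all rows, 6.02% lay above and 4.25% below in this way. None of the effectors passed after adjustment over all rows.

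**Figure D4:**
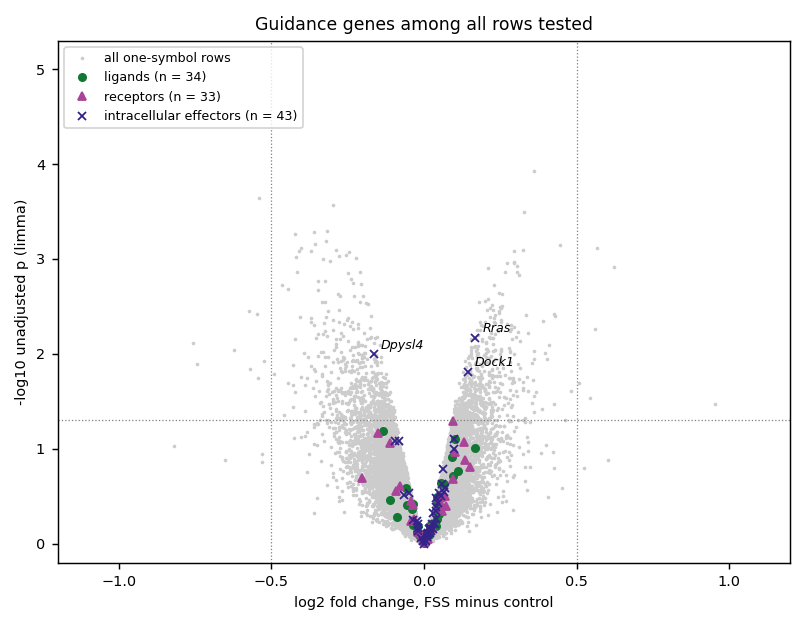
Difference in log2 level between FSS and control mice (x axis) against -log10 of the unadjusted p from limma (y axis) for all 21789 rows tested (grey), the 34 guidance ligands, the 33 receptors and the 43 measured intracellular effectors. Dotted lines mark a log2 fold change of -0.5 and 0.5 and a p of 0.05. No ligand or receptor lies above the p line by the row taken for it, whereas Rras, Dock1 and Dpysl4 do. The further row of Epha10, drawn among the grey rows, also lies above the line.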

How the data were processed

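The authors deposited log2 levels of 1-colour arrays. As tools, the submitters' processing notes list Affymetrix Expression Console and RMA, which subtracts background, gives all arrays 1 distribution and summarises the probes of a gene, and which can shrink differences of dim genes. The paper's methods mention a further FSS mouse with an array, which was not analysed here.

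Of 28944 rows, 21789 had 1 symbol and were fitted with limma 3.58.1 in R 4.3.3 (lmFit, eBayes, no covariate), and p-values were adjusted over all of them. Rows with several symbols (1621) or none (5534) named no gene. By gene ID, 67 of 67 members matched a RefSeq gene (GRCm38.p6). No sequence or coordinate was used.

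The genes named are those without overlap between groups, the highest and lowest of each of 12 families, and the effectors with an unadjusted p under 0.05. The other members and markers with values were chosen for their role or after their values were seen. Members and lists were chosen with earlier results of these data known. The code was tested on simulated data. Precision is limited by the number of arrays, and the median half-width of the members' 95% intervals was 0.14. Alternatives were other tests, variance models, normalizations, filters and rows, a block for the replicate number, and fits without 1 of the arrays. A block for how widely the values of an array are spread was added after the data were seen.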

Additional observations from a re-analysis of the deposited data

How the results depend on the processing

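The absence of guidance genes past an adjusted p of 0.05 held in all 17 alternative fits. Of the 67, 12 passed an unadjusted p of 0.05 in at least 1 of them. The share of all rows that did so was not counted, so the 12 have no background to be read against. The number higher, 0 with all mice, was 1 by the methods' t-test (2.96% of all rows in that fit), 2 with trend and robust variances (3.47%), 1 with array weights (3.07%), 2 among the 56 members at or over the table median (4.57%) and 1 among rows over the receptor level (3.47%). The number lower, also 0, was 1 by the t-test (2.04%), 3 with trend and robust variances (2.15%), 1 with array weights (3.57%), 1 with quantile normalization (2.57%), 2 among rows at or over the median (1.91%), 1 among rows over the receptor level (2.15%) and 1 with the mean of the rows of a symbol (2.71%). Leaving out 1 mouse gave 0 to 4 higher and 0 to 2 lower, beside 1.71% to 3.42% and 1.79% to 4.23% of all rows in these fits. The cause of these differences was not tested. The labels number the mice of each group and do not say what a number stands for. Correlations of deviations were -0.048, 0.14 and 0.24 between same-numbered mice, and from -0.26 to 0.13 between the others. Mice numbered 2 and 3 correlated best with their own number, and those numbered 1 did not. A fit with the replicate block gave 0 members higher and 1 lower. Over all rows 704 were higher and 790 lower with the block, beside 542 and 579 without it. Without overlap were 6 genes, and 4 to 8 over the 5 alternatives where this was counted. The share of all rows without overlap was not counted in these alternatives, so the 4 to 8 have no background. Counts over all rows at the paper's thresholds, 15, ranged from 5 among rows at or over the median and 8 by the t-test to 29 without control mouse 1.

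The median over members was 0.017 and moved by less than its SD between mice, also 0.017, in each alternative. With quantile normalization it fell to 0.00059, the same as the median over all rows in that fit. On leaving out 1 mouse the log2 fold change crossed 0 in 30 of 67 members, and the share of all rows was not counted. All 30 had a value of 0.089 or less in size with all mice. Those named by the rule were Sema3a (-0.22 to 0.0081), Sema4a (-0.018 to 0.066), Epha6 (-0.019 to 0.13), Ephb4 (-0.080 to 0.022), Robo4 (-0.066 to 0.011), Slit3 (-0.0089 to 0.066) and Efnb1 (-0.00087 to 0.11). That of Ephb4 was also 0.016 with the array spread as a block, which crossed 0 in no other gene named by the rule. Arrays with narrower and with wider spread of values each include 1 group with a lone mouse, so no test was run within them, and the median difference over members was -0.00045 in the narrower and 0.031 in the wider ones.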
